A study of Mus musculus with 52 samples.

Results

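The 204 regions described here are binding sites of PGC1A in cold-exposed mouse brown adipose tissue (BAT) that overlap no PPARG consensus site in cold. They were chosen by the peak lists themselves. Overlapping peaks of the 3 PGC1A cold lists were merged on chromosomes 1 to 19 and X, and a merged site held by at least 2 lists was a consensus site. Of the 2485 PGC1A cold consensus sites, 204 (8.21%) shared no base with a PPARG cold consensus site built in the same way, and 2281 did. The absence of PPARG and the presence of PGC1A in cold are therefore what selected the sites, and they are given as a description with no test. ERR1, CEBPA, CEBPB, PPARA, H3K27ac and PPARG at room temperature (RT) were not used in the choice.

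PGC1A is a transcriptional coactivator that does not bind DNA itself and is brought to chromatin by other factors. Its best known partners in mitochondrial tissues are the estrogen-related receptors, among them ERR1, and the receptors of the PPAR family, which pair with RXR. PPARG is the main nuclear receptor of fat cell identity, CEBPA and CEBPB are leucine zipper factors that act beside it, and H3K27ac is a histone acetylation found at active promoters and enhancers. In BAT, PGC1A is known for the induction of thermogenic and mitochondrial genes in the cold.

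The series profiled BAT by chromatin immunoprecipitation sequencing in 52 samples, of which 35 had a peak list and 17 were inputs not used here. "Cold" denotes 4 h of cold stress and RT the control temperature. PGC1A (3 libraries, cold) was pulled down through the tag of PGC1A-HIsHA KI mice, and the third of these libraries carries the genotype label HA-CEBPA KI while its title says PGC1A. CEBPA (3 libraries, RT) came from HA-CEBPA KI mice, CEBPB (2, cold) from HA-CEBPB KI mice, and PPARA (3 cold, 2 RT) from HA-PPARA KI mice. The same tag antibody served for PGC1A, PPARA, CEBPA and CEBPB. PPARG (3 cold, 3 RT) and ERR1 (1 cold, 1 RT) were profiled in WT mice with antibodies to the proteins. H3K27ac was profiled in WT mice (3 cold, 3 RT), and in TXNIP WT and TXNIP KO mice (2 cold and 2 RT each); its chromatin was fixed with formaldehyde alone, that of the other targets with DSG and formaldehyde. The labels do not say whether replicates were separate animals, so each p-value reflects differences among libraries that may be technical replicates.

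PGC1A lists held 2347 to 3057 peaks, PPARG cold lists 33272 to 39053, and H3K27ac lists 37555 to 60204. All 8 brown fat marker genes had an H3K27ac peak in all 14 H3K27ac libraries, with 163 to 310 kb of summed peak length. Of 5 skeletal muscle markers, Acta1, Ckm, Myod1 and Myh4 had none in any library, and Mylpf had one in all 14, with 2.17 to 4.67 kb. Endothelial markers (3 of 3 with a peak in every library, 68.2 to 122 kb) were also covered. In whole tissue, fewer cells of a type and less signal per cell cannot be told apart. Markers of macrophages and lymphocytes (2 of 4, 2.22 to 31.3 kb) and of fibroblasts (2 of 3, 0.913 to 11.5 kb) were covered less.

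Promoter sequences show the DNA at some of the sites that lie on a gene start. They are from RefSeq (GRCm38.p6), run 5′ to 3′ on the gene's strand, and end at the last base before the annotated start, except the ERR element of Sdhd and Timm8b. Capitals mark the searched elements, on either strand, that are described further on, except GC boxes and the short letters AGGTCA outside an ERR element, which are left in lower case. Cox10, Atp5b and Mrps21 are shown because they are among the promoter sites with the strongest PGC1A signal, and the other sequences because they hold an ERR element or lie beside it. The short Sdhd and Timm8b sequences are the gap between these divergent genes, read toward Timm8b, and the ERR element beside it, which lies before the start of Timm8b and after that of Sdhd.
Cox10 (chr11:64079473-64079722, minus strand): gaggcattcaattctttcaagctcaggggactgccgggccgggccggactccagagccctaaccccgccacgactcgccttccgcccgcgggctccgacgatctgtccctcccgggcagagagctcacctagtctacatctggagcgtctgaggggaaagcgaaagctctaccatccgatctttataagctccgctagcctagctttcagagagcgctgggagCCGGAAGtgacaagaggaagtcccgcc
Atp5b (chr10:128083057-128083306, plus strand): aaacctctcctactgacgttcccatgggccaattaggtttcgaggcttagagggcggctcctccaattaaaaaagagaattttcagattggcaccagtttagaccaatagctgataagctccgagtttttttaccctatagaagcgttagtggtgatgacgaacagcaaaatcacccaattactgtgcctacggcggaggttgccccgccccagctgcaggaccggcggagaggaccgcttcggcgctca
Mrps21 (chr3:95871515-95871764, minus strand): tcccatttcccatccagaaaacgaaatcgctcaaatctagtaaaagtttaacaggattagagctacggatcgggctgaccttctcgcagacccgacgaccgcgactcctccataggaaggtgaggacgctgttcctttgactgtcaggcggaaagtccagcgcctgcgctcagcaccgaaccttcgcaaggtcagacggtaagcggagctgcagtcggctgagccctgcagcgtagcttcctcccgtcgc
Psmc3ip (chr11:101095436-101095685, minus strand): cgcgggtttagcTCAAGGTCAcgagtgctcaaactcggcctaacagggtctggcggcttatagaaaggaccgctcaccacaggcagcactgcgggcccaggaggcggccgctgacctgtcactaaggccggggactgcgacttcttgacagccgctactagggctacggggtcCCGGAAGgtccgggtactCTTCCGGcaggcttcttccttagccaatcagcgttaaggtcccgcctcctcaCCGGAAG
Sdhd to Timm8b gap (chr9:50603850-50603900, plus strand): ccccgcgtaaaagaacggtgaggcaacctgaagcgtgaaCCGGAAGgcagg
Sdhd and Timm8b ERR element (chr9:50603795-50603823, plus strand): tttcgagggcTCAAGGTCActctacaacc

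The sites were held by PGC1A replicates 1, 2 and 3 in 166, 159 and 190 cases. All 3 lists held 107 of them and 2 lists held 97. Without replicate 3, the library with the other genotype label, 122 sites met the rule. The number also depended on the PPARG lists, with 323 sites without PPARG replicate 2 and 327 without PPARG replicate 3. Site width was 465 bp in the median (307 to 1461), against 586 bp at the 2281 sites with PPARG. The deposited PGC1A fold enrichment, averaged over the lists that held a site, was 6.11 in the median (1.48 to 25.4), against 6.99. Sites in 3 lists had a median of 7.42 and sites in 2 lists of 5.49. The medians of both sets were thus close, while the highest value among sites with PPARG was 81.0.

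The absence of PPARG was a matter of the threshold at many sites. In cold, 105 sites had no peak in any PPARG list, 98 had a peak in 1 list, and 1 (Ctdnep1) had peaks in 2 lists that were not part of a common consensus site. Among the 98, the peak was in replicate 1 at 25 sites, in replicate 2 at 34 and in replicate 3 at 39, with median deposited folds of 4.02, 4.16 and 4.6. At the edge of the rule, the members nearest to a PPARG cold consensus site were at Rabl3 (39 bp away), Lnpep (252 bp) and Psd3 (270 bp). The sites left out with the least overlap were at Lpin1 (69 bp shared), Angptl8 (76 bp) and Mycbp (86 bp). The nearest PPARG cold consensus site was 6862.5 bp away in the median. It lay within 1 kb at 27 sites and within 10 kb at 113.

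Most sites were distal. Of the 204, 34 lay within 1 kb of a protein-coding gene start (16.7%, 95% Clopper-Pearson interval 11.8 to 22.5%), 92 elsewhere in a gene body and 78 outside gene bodies. At the sites with PPARG the promoter share was 33.9% (773 of 2281). Among all consensus sites of single factors it was 26.9% for PPARG in cold, 23.4% for ERR1 in cold, 17.5% for CEBPA and 14.8% for CEBPB. The distance to the nearest gene start was 10.8 kb in the median, and 38 sites were more than 50 kb from any. The 204 sites had 200 different nearest genes, of which 45 were also the nearest gene of a PGC1A site with PPARG.

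The strongest site lay at chr4:110050695-110051633, 67.0 kb from the nearest gene, Dmrta2, with PGC1A folds of 24.4, 25.5 and 26.3 in the 3 lists. It held ERR1 (19.7 at RT and 45.6 in cold), no CEBPA or CEBPB consensus, and a PPARG peak in 1 cold list. The next was the promoter of Cox10, which encodes the enzyme that makes the heme A precursor of cytochrome c oxidase (chr11:64078930-64079631; folds 23.4, 21.5 and 22.9). A site inside Hectd4 (chr5:121251625-121252301) gave 17.7, 17.3 and 23.0, with 1 list clearly above the others. The remaining sites of the 10 strongest were near or in Bmper, Zmiz1, Cdv3, Jund, Tuba1a, Pmm1 and Kif13a. Kif13a was held by 2 lists only, and all 10 had an ERR1 peak in the cold. Jund, an AP-1 factor gene that responds to stimuli, had folds of 9.91, 12.1 and 16.9 at a site 742 bp from its start, with replicate 3 above the other libraries. Bmper encodes a regulator of BMP signalling, and its site was 45.9 kb away with folds of 13.2, 15.4 and 16.1.

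**Figure D1:**
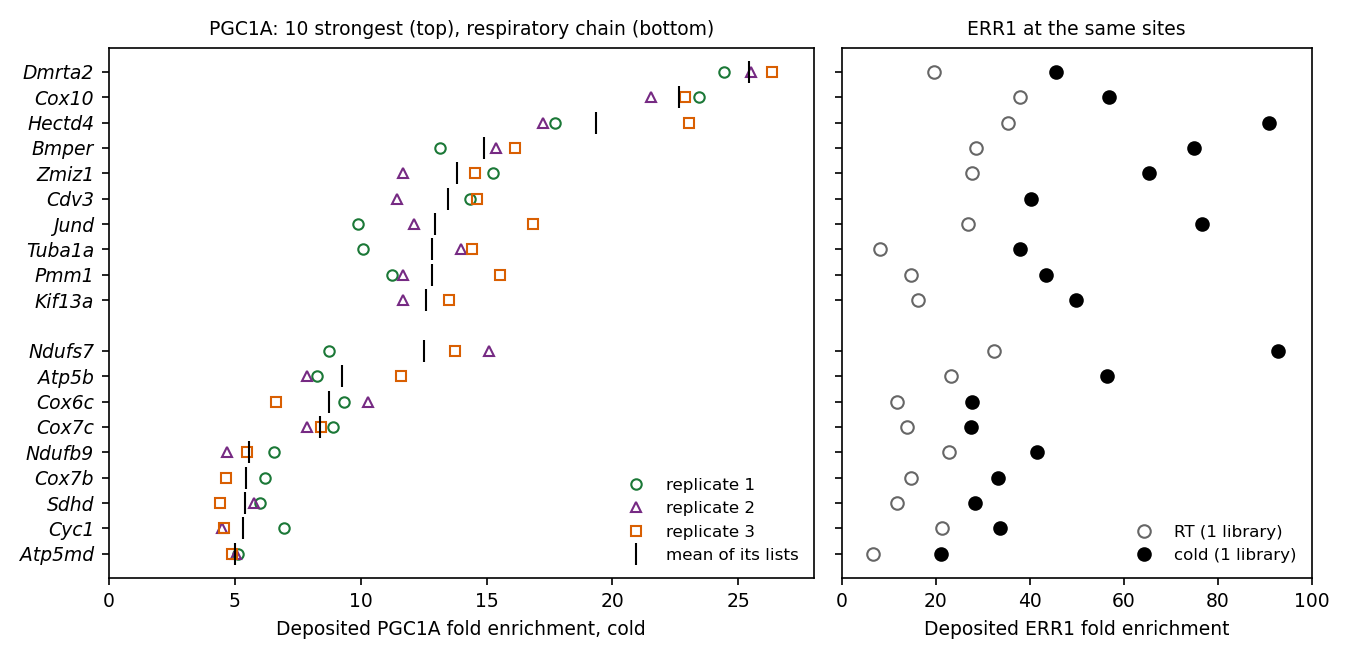
Deposited PGC1A fold enrichment in each cold list (left; symbols are replicates, the bar is the mean of the lists that held the site) and ERR1 fold enrichment at RT and in cold (right; 1 library each) at the 10 strongest sites and the 9 respiratory chain sites. Dmrta2 and Cox10 stand above 20 in every PGC1A list, the respiratory chain sites lie between 4.44 and 15.1, and Cdv3 has no ERR1 peak at RT.

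ERR1 was present at nearly all sites. In the cold list 192 of 204 sites had an ERR1 peak (94.1%, 95% Clopper-Pearson interval 90.0 to 96.9%), against 99.3% of the sites with PPARG. At RT it was 177 sites (86.8%, interval 81.3 to 91.1%) against 93.6%. In 176 sites ERR1 was called in both lists, in 16 in cold only, at 1 (Tmtc1) at RT only, and at 11 in neither. All 34 promoter sites had ERR1 in both lists. With 1 ERR1 library per condition these differences have no replicate check and no test, and the intervals cover counting error only.

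The ERR1 peaks at these sites were strong ones. Their deposited fold in cold was 33.1 in the median, and 32.0 at sites with PPARG, and they stood at the 96.2th percentile of the cold ERR1 list in the median. At RT the median fold was 12.4 (14.7 with PPARG) and the percentile 83.5 (88.8 with PPARG). ERR1 fold was higher in the cold list than in the RT list at 176 of 176 sites in both lists, with a median ratio of 2.59 (1.18 to 7.24). The same held at 98.9% of 2135 sites with PPARG, with a median ratio of 2.28, so a higher value in the cold list was not particular to sites without PPARG. The cold ERR1 list was also longer, 45800 peaks against 16020, and depth and binding cannot be told apart from these 2 lists. Ndufs7 had the highest ERR1 fold in cold of all 204 sites, 92.8 against 32.5 at RT, followed by Hectd4 with 91.0 and 35.4. A site 86.6 kb from Cstad, named after its value was seen, had the highest fold at RT, 45.6, and 89.0 in cold.

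**Figure D2:**
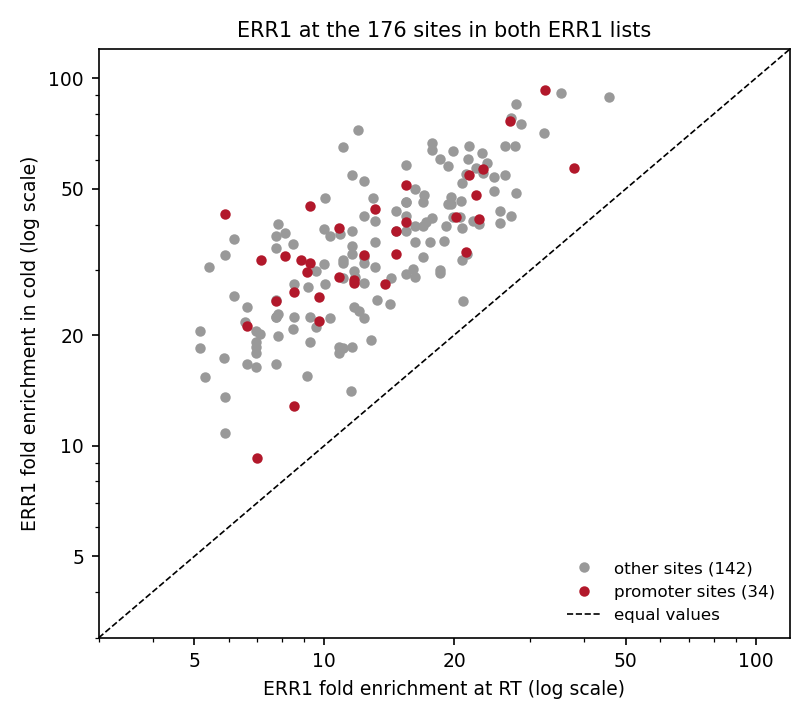
Deposited ERR1 fold enrichment at RT (x, log scale) and in cold (y, log scale) at the 176 sites called in both single ERR1 lists, 34 of them at promoters. Every point lies above the dashed line of equal values, and promoter and other sites overlap.

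The 12 sites without ERR1 in cold were weak PGC1A sites, with a median fold of 3.38 against 6.29 at the 192 with ERR1. They included sites at Sfi1 (2 sites), Gm40035 (2 sites), Gdi2 and P4ha2. No consensus site of any other factor lay at 4 sites, 2 in Sfi1, 1 near Gm40035 and 1 near Gdi2. Their PGC1A folds were 4.14 at most, those at Gdi2 were 1.79 and 1.53, and none had an H3K27ac consensus in WT tissue. ERR1 in cold was the sole other factor at 43 sites (21.1%), counting PPARG and PPARA at either temperature, CEBPA and CEBPB.

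Genes of the respiratory chain were the largest named group. Of the 89 genes of that list, 9 were the nearest gene of a site, and all 9 sites were at promoters. At the sites with PPARG 58 of the 89 genes had one, and 57 of those 59 sites were at promoters. Respiratory chain promoters made up 9 of the 34 promoter sites (26.5%) and 57 of the 773 promoter sites with PPARG (7.37%); in all sites the shares were 4.41% and 2.59%. These are descriptions with no test. By complex, the sites were at Ndufs7 and Ndufb9 (complex I), Sdhd (a membrane anchor of complex II), Cyc1 (cytochrome c1 of complex III), Cox6c, Cox7b and Cox7c (complex IV), and Atp5b and Atp5md (ATP synthase). The Sdhd and Atp5md sites also lay within 1 kb of the starts of the neighbouring genes Timm8b and Pdcd11.

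Ndufs7 (chr10:80249231-80249823) had PGC1A folds of 8.73, 15.1 and 13.8. Atp5b, the catalytic beta subunit (chr10:128082483-128083943), had folds of 8.27, 7.88 and 11.6. Cox6c (chr15:35937223-35938307) had 9.33, 10.3 and 6.65. The lowest value was in replicate 1 at Ndufs7, replicate 2 at Atp5b and replicate 3 at Cox6c, so no library was low at all 3. Cox7c (chr13:86046136-86046909) had 8.90, 7.88 and 8.42, and was the site farthest from any PPARG cold consensus site, 416 kb. Sdhd (chr9:50603281-50603925) had 6.01, 5.79 and 4.44. Ndufb9, Cyc1 and Atp5md were also in 3 lists with folds from 4.48 to 6.94, and Cox7b was in 2 lists with 6.22 and 4.66. ERR1 folds at the 9 promoters were 21.1 to 92.8 in cold and 6.62 to 32.5 at RT. CEBPA and CEBPB were both present at Ndufs7 and Sdhd and absent as consensus sites from the other 7. PPARG reached 1 cold list at 7 of the 9, and had an RT consensus at Ndufs7, Atp5b, Cox6c, Sdhd, Cyc1 and Atp5md.

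Among the other promoter sites, the following were named after their values were seen and belong to no tested group: Ptcd3, of the mitochondrial ribosome, Sdhaf4 (assembly of complex II), Cmc2 (assembly of complex IV), Dmac2 (assembly of complex I) and Apoo (cristae organisation). Promoter sites also lay at genes of other roles, among them Nfyc, Gpr3, Wnt9b, Kcng4, Mapre3 and Speg. Mrps21 had PGC1A folds of 11.1, 8.25 and 8.39, and Ptcd3 8.85, 8.70 and 12.0. The Ptcd3 and Apoo sites also lay within 1 kb of the starts of the neighbouring genes Polr1a and Fam90a1b. Of 85 genes of mitochondrial ribosome and translation, Mrps21 and Mrps24 had a site (0.98% of the sites, beside 0.57% of the sites with PPARG). Of 19 regulators of the ERR and PGC1 group, Esrrg, which encodes an ERR protein, had a site 285 bp from a start with folds of 5.37, 5.72 and 5.54. That list held 0.49% of the sites, beside 0.921% of the sites with PPARG.

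Thermogenesis genes were represented by Ckb, the creatine kinase of the creatine cycle, and Dio2, which activates thyroid hormone, 2 of 23. Their sites made up 0.98% of the 204, beside 1.01% of the sites with PPARG. Ckb had folds of 10.0 and 8.19 in replicates 1 and 3 at a site 71 bp from its start, and the Dio2 site, 77.2 kb away, had 3.94 and 4.26. Of 23 fatty acid oxidation genes only Acsl1, which activates long fatty acids, had a site (4.79, 4.81 and 5.32). At the sites with PPARG 19 of the 23 genes had one, and the shares of sites were 0.49% and 1.23%. Jund and Sik1, a kinase induced by cAMP, represented 29 cAMP and immediate early genes (0.98%, beside 0.701% of the sites with PPARG). Pfkl represented 24 genes of glucose use (0.49%, beside 1.14%). Shares that rest on 1 or 2 sites are given with no test. No site had its nearest gene in the lists of the TCA cycle (18 genes), mitochondrial biogenesis and import (45), circadian clock (19), de novo lipogenesis (17) or adipocyte identity (20). The same 5 lists held 0.701%, 0.614%, 0.307%, 0.701% and 0.745% of the sites with PPARG. For each list taken alone, that share is so low that 0 of 204 is no difference that its count could show. The 5 lists were not tested together. Lists of muscle, endothelial, macrophage and lymphocyte, and fibroblast genes had no site either.

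Promoter elements could be searched at 20 of the 204 sites, which overlapped 26 windows (24 genes) of 250 bases before and 50 bases after a start. Both strands were searched and overlapping matches were allowed. The ERR element TCAAGGTCA was in 3 of 26 windows (11.5%), against 1.08% of 649 windows at sites with PPARG and 0.337% of all 21045 windows. The 3 windows are those of Psmc3ip, a recombination gene, and of Sdhd and Timm8b, which share 1 copy between them, so there are 2 copies in all. It begins 238 bases before the start of Psmc3ip and 96 bases before that of Timm8b, which encodes an import chaperone. The latter copy lies inside Sdhd, at position 37 after its start. The looser letters TNAAGGTCA, added after the first search, were in the same 3 windows, and in 2.00% and 1.04% of the others. The shorter AGGTCA was in 5 windows (19.2%), Mrps21 and Cox7b being added, against 24.5% and 14.6%.

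Of the other elements, the ETS core CCGGAAG was in 8 windows (30.8%, against 25.1% with PPARG and 11.7% of all). The YY1 core AAGATGGC was in 5 (19.2%, against 6.01% and 3.07%), at Cox10, Ndufs7, Ptcd3 and Dmac2, whose 2 overlapping windows were both counted. GC boxes, GGGCGG, were in 13 of 26 (against 69.0% and 46.7%). The DR1 element bound by PPAR and RXR, AGGTCA repeated after 1 base, was in none of the 26, in 0.154% of windows with PPARG and in 0.048% of all. The NRF1 core GCGCATGC (1 window), the C/EBP palindrome TTGCNNAA (1), the cAMP response element TGACGTCA (1) and the E-box CACGTG (2) were in at most 7.69%. A match is a description of the letters. AGGTCA lies within the ERR and DR1 elements, so these counts overlap.

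**Figure D3:**
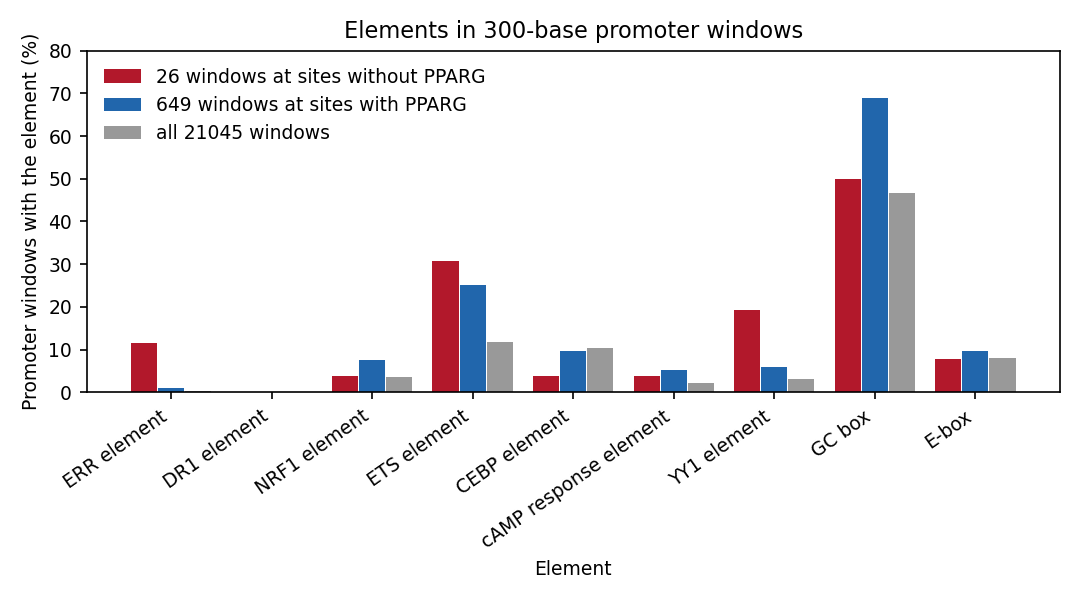
Percent of 300-base promoter windows that hold each element on either strand, at 26 windows of sites without PPARG, 649 windows of sites with PPARG and all 21045 windows. ERR and YY1 elements are the 2 with the widest gap between sites without PPARG and sites with PPARG in favour of the former, from 3 and 5 windows.

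CEBPA and CEBPB were at fewer of these sites than of the sites with PPARG. CEBPA peaks were at 34.3%, 35.8% and 51.0% of the 204 sites in the 3 RT libraries, and at 67.7%, 68.2% and 82.3% of the 2281 others. The share was lower in 3 of 3 libraries, by -32.4 ± 1.03 percentage points (SD, n = 3; exact sign-flip permutation test over libraries, two-sided, p = 0.25, the smallest that 3 libraries allow; adjusted 0.375 over 6 tests). CEBPB peaks were at 51.0% and 54.9% of the sites in the 2 cold libraries, and at 72.6% and 76.1% of the others. The difference was -21.4 ± 0.293 points (SD, n = 2; exact sign-flip permutation test, two-sided, p = 0.5, the smallest that 2 libraries allow; adjusted 0.5). The gaps between the sets were far larger than the spread of the difference between libraries, but neither design could reach the threshold.

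As consensus sites, CEBPA was at 78 of the 204 (38.2%) and CEBPB at 98 (48.0%). Both were at 69 sites, CEBPA alone at 9, CEBPB alone at 29 and neither at 97. Neither was at 47.5% of these sites and at 20.5% of the sites with PPARG. Promoter sites held them least, CEBPA at 8 of 34 and CEBPB at 9 of 34. Elsewhere they were at 70 and 89 of 170. CEBPA and CEBPB were profiled at different temperatures, so their shares are not a comparison of temperature. The site with the highest CEBPB fold, named after its value was seen, was at Cit, with 45.7 and 47.8 for CEBPB and 15.2, 14.8 and 23.0 for CEBPA.

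At RT, PPARG was present at about as many of the sites as it was absent from. A PPARG RT consensus site lay at 105 of the 204 (51.5%), against 97.4% of the sites with PPARG in cold. PPARG RT peaks were at 45.6%, 53.9% and 40.7% of the sites in the 3 libraries, and all 3 RT lists held 57. The within-library difference was -49.8 ± 5.63 points (SD, n = 3; exact sign-flip permutation test, two-sided, p = 0.25, the smallest possible; adjusted 0.375). This is not independent of the choice, since the same protein was measured. Median PPARG RT folds where present were 4.62, 4.77 and 4.53. An exception was a site 52 kb from Zfp831 (chr2:174546374-174546680), with RT folds of 107, 98.2 and 96.8 and a peak in 1 cold list (3.79). It lay 339 bp from a PPARG cold consensus site and was named after its values were seen. A fold is that of any overlapping peak, and whether these RT peaks were centred at this site was not tested.

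Other factors were also counted by whether PPARG was present at RT, with no test. CEBPA was at 53 of 105 with and 25 of 99 without a PPARG RT consensus, H3K27ac in WT cold at 89 and 56, and CEBPB at 49 and 49. PPARA, pulled down through its tag, was at 12.7%, 4.41% and 3.92% of the sites in cold, against 76.4%, 62.3% and 58.7% of the sites with PPARG. The difference was -58.7 ± 4.51 points (SD, n = 3; exact sign-flip permutation test, two-sided, p = 0.25, the smallest possible; adjusted 0.375). At RT PPARA was at 31.9% and 27.5%, against 89.5% and 87.7% (difference -58.9 ± 1.88 points, n = 2; exact sign-flip permutation test, two-sided, p = 0.5; adjusted 0.5). Sites without PPARG in cold were thus mostly without PPARA as well, and 41 sites had no peak of either protein in any list at either temperature.

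**Figure D4:**
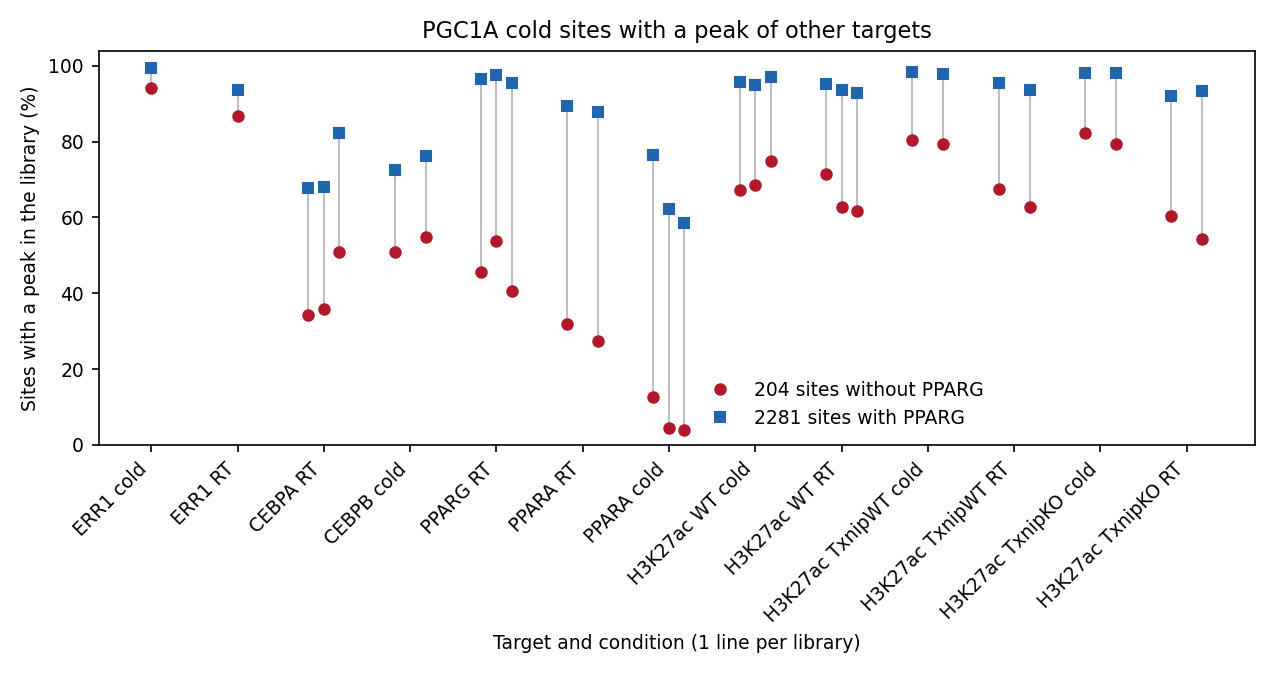
Percent of PGC1A cold sites with a peak in each library, for the 204 sites without PPARG (circles) and the 2281 sites with PPARG (squares), joined by a line for each library. The difference is -6.83 and -5.22 points for ERR1 and -63.6 to -15.8 points for the other targets, and circles lie below squares in every library.

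Fewer of the sites were acetylated than of the sites with PPARG. Over the 14 H3K27ac libraries, a peak lay at 69.5% ± 8.72 of the 204 sites (SD, n = 14) and at 95.5% of the others (92.1 to 98.3%). The share was lower in 14 of 14 libraries, by -25.9 ± 6.67 points (exact sign-flip permutation test, two-sided, p = 0.000122, the smallest possible with 14 libraries; adjusted 0.000732 over 6 tests). All 14 libraries, pooled over cohorts and temperatures, read the same sites. The p-value therefore speaks of the sign across libraries and does not measure the spread among sites. The gap was -10.2 points at promoters and -27.9 points elsewhere. In WT cold tissue 145 sites (71.1%) had an H3K27ac consensus, 32 of 34 at promoters and 113 of 170 elsewhere. An H3K27ac consensus was present in all 6 groups at 98 sites (48.0%), against 90.4% of the sites with PPARG.

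More sites were acetylated in cold than at RT in every cohort, by amounts that the number of libraries could not test to the threshold. In WT mice the shares were 67.2%, 68.6% and 75% in cold and 71.6%, 62.7% and 61.8% at RT. The groups overlapped, with a difference of 4.90 points (exact permutation test, two-sided, n = 3 and 3, p = 0.3), and 2.53 points without WT cold replicate 3. TXNIP WT mice had 80.4% and 79.4% in cold against 67.6% and 62.7% at RT. That difference was 14.7 points (exact permutation test, two-sided, n = 2 and 2, p = 0.33, the smallest possible). TXNIP KO mice had 82.4% and 79.4% in cold against 60.3% and 54.4% at RT. The groups did not overlap in either TXNIP cohort, and the KO difference was 23.5 points (exact permutation test, two-sided, n = 2 and 2, p = 0.33, the smallest possible). The KO lists were longer in cold (53651 and 54832 peaks) than at RT (37555 and 42294). At the sites with PPARG the same differences were 2.03, 3.59 and 5.52 points in WT, TXNIP WT and TXNIP KO, with all shares above 92%. There too the groups did not overlap in either TXNIP cohort. Shares above 92% at RT leave little room to rise, so the sizes of these differences are not compared between sites with and without PPARG. With lists of equal length the differences at the sites without PPARG were 6.21, 12.5 and 15.7 points.

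**Figure D5:**
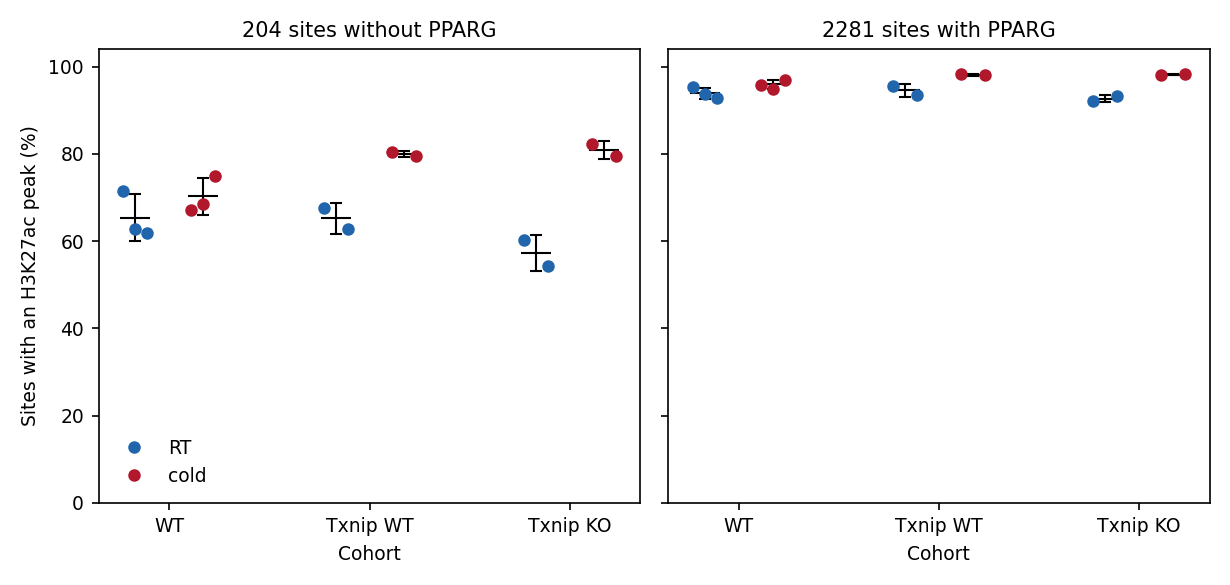
Percent of sites with an H3K27ac peak in each library at RT and in cold, by cohort, for the 204 sites without PPARG (left) and the 2281 with PPARG (right); bars are mean ± SD of 3 (WT) or 2 libraries. RT and cold points overlap in WT and are apart in both TXNIP cohorts, and the sites with PPARG lie above 92% throughout.

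The amount of acetylation was compared as the peak-covered length within 1 kb of the site centre, scaled to the library total. The test was limma on log2(length + 200 bp) over 46959 windows of all factor sites, with Benjamini-Hochberg adjustment. Of the 204 sites, 179 were covered in at least 2 libraries and were tested. In WT mice 2 of them were higher in cold (1.12%, beside 2.84% of all windows) and 4 were lower (2.23%, beside 5.11%). The median log2 difference was 0.07 at the 179 sites and 0.01 over all windows. The shares called were near or below those of all windows, and most sites did not pass the test. The measure cannot exceed the 2000 bp of a window. At windows covered in full in every WT library, such as those of Atp5b, Ndufb9 and Sdhd, the log2 difference of 0.08 came from the scaling alone. A rise in acetylation could not be seen there, so the lack of a call is not read as no change.

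A site near Ncf1, a subunit of the phagocyte oxidase, had 1.87, 1.90 and 1.80 kb in cold and 1.43, 1.29 and 1.26 kb at RT (log2 0.43 ± 0.09 SE, limma adjusted p = 0.0144). A site inside Palm had 1.46, 1.53 and 1.36 kb in cold and 1.03, 1.12 and 1.11 kb at RT (0.36 ± 0.09, adjusted p = 0.0289). The largest fall was 15.8 kb from 1700001O22Rik, at 0 in all 3 cold libraries and 0.902, 0.318 and 0.420 kb at RT (-1.82 ± 0.35, adjusted p = 0.00942). In these 3 sites the libraries of the 2 conditions did not overlap. Hsd11b1, the enzyme that regenerates active glucocorticoid, had a site inside the gene with 1.73, 1.21 and 1.65 kb at RT and 1.21, 0.477 and 0.615 kb in cold (-0.90 ± 0.23, adjusted p = 0.0338). The site near G6pc fell by 0.43 ± 0.11 (adjusted p = 0.0355). None of the WT calls was called in either TXNIP cohort by limma. In TXNIP WT mice the log2 difference was -0.10 at Ncf1, 0.12 at Palm, -1.11 at 1700001O22Rik, 0.03 at Hsd11b1 and -0.10 at G6pc. At Ncf1 the window was covered in full in both TXNIP WT cold libraries and RT replicate 2, and nearly so in RT replicate 1. The value there was close to the -0.12 of the fully covered Atp5b window. A rise could hardly be seen at Ncf1, so its sign is not compared. The sign differed at Hsd11b1, where the value was small beside its SE of 0.28. The call at 1700001O22Rik was lost under 1 of 15 alternatives, and those at Ncf1, Palm, Hsd11b1 and G6pc under 4, 7, 9 and 9. With WT cold replicate 2 or WT RT replicate 3 left out, 3 sites were called.

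In TXNIP WT mice 10 sites were higher in cold (5.59%, beside 3.12% of all windows) and 0 were lower by limma (beside 2.19%; 5 at an unadjusted p under 0.05). All 10 had no covered base in either RT library, and 8 had none in any of the 7 RT libraries of all cohorts. Those 8 passed the filter on coverage only through cold libraries and so had to be higher in cold, and nothing is read from the count. The 10 sites were at Gpbp1l1, 4933407O12Rik, Sik1, Mrps24, Glrx3, Gpr3, Sp3, Cntrob, Efcab2 and Ankmy1, named because they were called. The Mrps24 site, 1 of those 8, had 0.721 and 0.829 kb in cold, given as a description because its direction was fixed by the filter. The Sik1 site, which was covered at RT in libraries of the other cohorts, had 0.951 and 0.795 kb in cold (log2 2.42 ± 0.62, limma adjusted p = 0.0447). That call was lost under 6 of 8 alternatives. Of the 10, 7 were also called higher in TXNIP KO and none was called in WT, where 3 had a log2 difference above 0. A site covered in no RT library could only be called higher in TXNIP KO too. The overlap of the 2 TXNIP cohorts is therefore not read as agreement. The Mrps24 site was covered in no WT library. Without TXNIP WT RT replicate 1 or 2 the count was 5 or 4.

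In TXNIP KO mice 34 sites were higher in cold (19%, beside 10.1% of all windows) and 37 lower (20.7%, beside 28.4%). This split rested on the scaling. With no scaling 25 were higher (14%, beside 7.77%) and 0 lower (beside 0.875%), and the median over all windows moved from -0.24 to 0.08. Among the 37 lower sites, 20 were covered to within 10 bp of the whole 2000 bp window in all 4 libraries, so the difference there came from the scaling to library totals; 15 of the 37 were promoters, among them Atp5b, Ndufb9, Sdhd and Ndufs7. The lower calls are therefore not read as falls. Of the 34 higher sites 24 had no covered base in either KO RT library and 1 was a promoter. Of these 34, 13 had no covered base in any of the 7 RT libraries and passed the filter only through cold libraries, so nothing is read from this count either. Among the strongest PGC1A sites, Dmrta2 had 0.438 and 0.628 kb in cold and 0 and 0 at RT (log2 1.86 ± 0.62, limma adjusted p = 0.033). Its call was lost under 7 of 8 alternatives. The largest difference was at Gpbp1l1, a site of intermediate PGC1A fold (3.30 ± 0.54, limma adjusted p = 0.00259). Without KO cold replicate 1, KO cold replicate 2 or KO RT replicate 1 the total of 71 calls was 9, 16 or 22. No site had a cold response that differed between TXNIP KO and TXNIP WT by the limma interaction term (0 of 179, beside 1.97% of all windows; 17 at an unadjusted p under 0.05).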

How the data were processed

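The data were the peak lists of 35 ChIP-seq libraries from BAT, each called from its own library. Per the submitters' processing notes, the build was GRCm38.p6. The tools named there are MACS2 (2.2.7.1), deepTools (3.4.3), BWA (0.7.17), Trim Galore (0.6.0) and SAMtools, with settings not given in the sources used. Each deposited peak has a score, a fold enrichment (ratio), a −log10 p-value and a −log10 q-value made by the authors. These were used to describe, rank or filter peaks within a list and were not tested. Read depth is unknown from peak lists, and list length can move with depth. Lists at a −log10 q of at least 5 and lists of equal length were alternatives.

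Groups and replicate numbers came from sample titles. Consensus sites and overlap (at least 1 bp) were as given in the text. A site was named by the nearest protein-coding gene body of the RefSeq table (21631 genes). Starts came from the RefSeq promoter table for 17274 genes, and for the others, strand not being given, both ends of the body counted as starts (6 sites). Windows of 1 kb on each side of 68886 merged factor sites were used for H3K27ac. A member's window was centred on the merged site, a median of 67 bp from the PGC1A site's centre, and 10 of these merged sites also hold a PPARG cold site. The 14 libraries shared 1 limma fit (limma 3.58.1, R 4.3.3; trended, threshold 0.05, two-sided), and its log2 differences understate thinly covered sites because of the 200 bp added. Shares were compared within libraries with exact sign-flip or permutation tests (Python 3.11.15, NumPy 2.4.6, pandas 2.3.3, SciPy 1.17.1, matplotlib 3.10.9). Tested on simulated data for the WT comparison with the residual spread of each of 46959 windows, limma recovered 118 of 200 windows changed by 1.5 on the log2 scale, with 9 false calls, so misses are common at this size.

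The members, gene lists (16), elements and tests were chosen with earlier results of these data known. Named were the 10 strongest sites by mean PGC1A fold, the 6 strongest promoter sites with ERR1, up to 5 sites with no other factor, the sites called in WT H3K27ac, up to 6 sites of each gene list and those at the edge of the rule, of which the text gives some; any others are said to be named after their values were seen. Printed promoter sequences were chosen from the strongest promoter sites and those with an ERR element, trimmed to bases before the start and outside protein-coding gene bodies, except the short ERR element inside Sdhd. 1 site called in WT H3K27ac is counted but not reported here by name.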

Additional observations from a re-analysis of the deposited data

How the results depend on the processing

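Alternatives changed 1 choice at a time. Of 131 alternative values of the comparisons 68 stayed within the limits set, 62 moved and 1 reversed, and for each the cause was not tested unless stated. The number of sites, 204, was 107 when all 3 PGC1A lists were required, 105 with no PPARG cold peak in any list and 99 with no PPARG consensus at either temperature, each a stricter rule by construction. It was 122 to 327 with a PGC1A or PPARG library left out.

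The gap to sites with PPARG (percentage points, consensus sites) kept its sign except for ERR1 at promoters alone, where it was 0.129 in cold and 3.36 at RT because all 34 sites had ERR1. For ERR1, -5.22 became -1.22 with all 3 PGC1A lists required and -2.10 with lists of equal length, and -4.53 to -1.85 with a PGC1A or PPARG library left out. For CEBPA, -35.2 became -40.3 (all 3 lists), -41.8 (no PPARG cold peak), -47.2 (no PPARG at either temperature), -31.6 (stricter peaks), -31.6 (equal lists), -34.0 (promoters) and -40.4 (other sites), and -40.9 to -30.6 with a library left out. For CEBPB, -22.5 became -23.2, -25.0, -20.0, -25.4, -24.4, -23.2 and -28.9 in the same order, -23.6 with sites within 500 bp joined, and -23.9 to -19.6 with a library left out. For H3K27ac in WT cold, -25.5 became -36.1 (no PPARG cold peak), -39.5 (no PPARG at either temperature), -21.3 (equal lists) and -5.49 (promoters), and -30.4 to -18.7 with a library left out. Without CEBPA replicate 3 the CEBPA consensus share of the sites was 27.5%.

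The promoter share was 24.5% within 2500 bp of a start. The cold minus RT difference in H3K27ac share in TXNIP KO mice was 15.7 points with equal lists. The WT count of 6 called windows was 2 with windows of 500 bp on each side, 1 with stricter peaks, 3 with the WT libraries alone, and 3 to 8 with a library left out. The TXNIP WT count of 10 was 4 to 9 with a library left out. The TXNIP KO count of 71 was 14 with equal lists, 25 with no scaling, and 9 to 75 with a library left out. In fits that leave 1 library in a group, that library is assumed to vary like the others. With no scaling, KO values at Ndufs7, Cox6c, Mrps21 and Cox7b became 0.0203, 0.0489, 0.0233 and 0.0039, and Dio2 was 0.012 with windows centred on the PGC1A site.

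Replicate numbers in WT mice share only a number (correlations of same-numbered cold and RT libraries 0.05, 0.07 and -0.05). With the replicate number as a block, 3, 6 and 17 sites were called in WT, TXNIP WT and TXNIP KO. Leave-outs of target libraries, equal lists for shares and TXNIP counts, windows centred on the PGC1A site, the looser ERR element and the interaction were chosen after seeing the data. Depth sets which weak peaks are listed, so absence from a list is not absence of binding.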
